A study of Mus musculus with 30 samples.

Results

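CT26 is a mouse colon carcinoma line that is grown in BALB/c mice, and CT26NYESO1 is a derivative of it that carries the human tumour antigen NY-ESO-1. The 6 libraries of these 2 lines, called the CT26 family here, were set against 9 libraries of 3 other lines of BALB/c origin, which are EMT6 (a mammary carcinoma), CMS5a (a fibrosarcoma) and Renca (a renal carcinoma). Each line had 3 libraries, and the 15 libraries are part of a series of 30 from 10 lines. The libraries were grouped by line name and not by any measured value, though the comparison was chosen with earlier results of these data known. The libraries are labelled as CD45+ immune cells of tumours grown under the skin, which were collected at a length of 10 mm and digested to single cells. The protocol text names no sorting step and describes RNA made from the cell suspensions. It mentions BALB/cJ and C57BL/6J hosts, and tumours with and without 24 hours of OK-432 (killed streptococci), but ties neither to a library. Host strain and treatment were therefore used as no group, and an unequal share of treated mice between lines cannot be told apart from the lines.

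A tumour grown from a cultured line in a mouse of matching strain draws in leukocytes, fibroblasts and vessels from the host, so its RNA is a mixture of the line's own transcripts and those of host cells. CT26 is widely used in immunotherapy research because its tumours are infiltrated by T cells and natural killer (NK) cells. These cells kill with granzymes and perforin and release interferon gamma, which induces guanylate-binding proteins and other GTPases in most cells that it reaches.

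Values are TPM, a share of all transcripts corrected for gene length, and TPM keep no read depth, so the counting precision of a single value is unknown. Each library had between 13399 and 14480 genes at 1 TPM or more, and mitochondrial transcripts took between 9.17% and 27.1% of TPM. The label was checked against Ptprc, the gene of CD45, which lay between 27.2 and 54.5 TPM in the CT26 family and between 9.28 and 69.2 TPM in the other libraries. Over 10 genes shared by most leukocytes the summed level was 740.4 to 993 TPM in the CT26 family, 1026 to 1390.5 in EMT6, 869 to 971 in CMS5a and 585 to 659 in Renca. Collagens, keratins and transcription factors that leukocytes are not known to express were also present, so the values below are those of whole libraries and not of leukocytes alone. Renca replicate 1 had the lowest Ptprc, at 9.28 TPM. The lowest r (across genes) to its own replicates was 0.959 for Renca replicates 1 and 2 and 0.961 for replicate 3. In the other lines the lowest such r was 0.979. CT26 replicate 2 and EMT6 replicate 1 were the lowest of their lines for many interferon and T cell genes.

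Of 55291 gene symbols, 16345 reached 1 TPM in at least 3 of the 15 libraries and were tested as log2(TPM + 1) with limma. Fold changes are on that scale, which shrinks those of genes at low levels. A call needed an adjusted p (Benjamini-Hochberg) below 0.05 and a shift of 1 or more on the log2 scale, up or down. Against the equal-weight mean of EMT6, CMS5a and Renca, 1217 genes were higher in the CT26 family (7.45% of those tested) and 1455 lower (8.90%), and the median log2 fold change over all genes was 0.01. CT26 and CT26NYESO1 taken separately both gave the call for 892 of the higher (5.46%) and 1227 of the lower genes (7.51%). The fold change had the same sign in both lines for 2660 of the 2672 called genes. This is largely built in, because the family fold change is the mean of those of both lines against the same libraries. A call also needed a shift of 1 or more, so opposite signs required a large difference between the lines. The count of shared signs is therefore not a separate check of the calls.

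Against 1 line at a time, the CT26 family was higher than EMT6 at 1154 genes (7.06%) and lower at 1630 (9.97%), higher than CMS5a at 1312 (8.03%) and lower at 1612 (9.86%), and higher than Renca at 2869 (17.6%) and lower at 2372 (14.5%). The median over all genes was 0.00379 against EMT6, -0.03 against CMS5a and 0.15 against Renca. Leaving a line out of the mean gave 1676 higher and 1778 lower genes without EMT6, 1548 and 1701 without CMS5a, and 980 and 1336 without Renca.

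Fewer genes held against every line. The CT26 family was higher than EMT6, than CMS5a and than Renca at 409 genes (2.50%) and lower than each of them at 259 (1.58%). Genes called in the family comparison, in each CT26 line and against each of the 3 lines numbered 360 higher (2.20%) and 253 lower (1.55%), and these are described below as called throughout. All 6 libraries lay above all 9 others at 877 genes (5.37%) and below them at 952 (5.82%). Of the higher genes, 232 were called against 1 line only, and for 181 of these the line was Renca. Of the lower genes, 458 were called against 1 line only, among them 257 against Renca. CT26 and CT26NYESO1 libraries correlated with each other at r from 0.967 to 0.979 across genes, and with Renca libraries at 0.760 to 0.819. The labels do not state whether the replicates of a line were different mice, and p-values therefore measure only the spread between these libraries. No test over the 5 line means was made, and the 2 CT26 lines are related.

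Baiap2l1 and Amigo2 had the largest rises of the genes called throughout. Baiap2l1, which links membranes to the actin skeleton (chromosome 5, 144264526 to 144358112, minus strand, mm10), stood at 734, 665 and 602 TPM in CT26 and 507, 494 and 659 in CT26NYESO1. In EMT6 it stood at 1.01, 1.43 and 1.10 TPM, in CMS5a at 0.110, 0.123 and 0.151 and in Renca at 8.32, 12.4 and 12.3. The groups did not overlap, and the log2 fold change of 7.62 ± 0.11 (SE, limma adjusted p = 3.5e-15) was the largest of all named genes. Amigo2, an adhesion protein of the cell surface, reached 231, 149 and 176 TPM in CT26 and 171, 175 and 183 in CT26NYESO1, against at most 1.89 TPM elsewhere (log2 fold change 6.78 ± 0.10). Esm1, a secreted proteoglycan best known from endothelium, had a log2 fold change of 6.14 ± 0.16, with 272 to 638 TPM in the CT26 family and at most 12.8 TPM in the others. Clca3a1, of a family of chloride channel regulators, rose by 5.97, the retinoid-induced membrane protein Rarres1 by 5.93, the secretory-vesicle phosphatase homolog Ptprn by 5.52 and the cytoskeletal adaptor Obsl1 by 4.81.

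Some of these genes were on in the CT26 family and close to off in the other 3 lines. The cut-off was 5 TPM or more in all 6 libraries and under 0.5 TPM in all 9 others. Of the 55291 symbols, with predicted genes, clones, pseudogenes and receptor segments left out, 14 genes met it. Sox2, a transcription factor of stem cells and of the embryonic nervous system, stood at 69.6, 43.7 and 49.5 TPM in CT26 and 18.0, 26.9 and 18.8 in CT26NYESO1. It was listed at 0 in 8 of the 9 other libraries and at 0.0496 TPM in the remaining one. Cldn6, a tight junction protein of embryonic epithelia, stood at 20.9, 25.4 and 20.5 TPM in CT26 and 107, 151 and 130.3 in CT26NYESO1, with at most 0.255 TPM in the others. Sele, the adhesion receptor E-selectin that captures leukocytes on inflamed endothelium, stood at 104, 93.0 and 131 TPM in CT26 and 36.6, 45.1 and 54.8 in CT26NYESO1 and at most at 0.151 TPM elsewhere. All 3 genes met this cut-off, so their presence in the family and near absence from EMT6, CMS5a and Renca restate how they were picked. The list of endothelial genes, to which Sele does not belong, was lower in the CT26 family, as given further on. The other on genes named by rule were Fer1l6, a ferlin, at a mean of 30.9 TPM, Glod5 at 26.7, the neurofilament gene Nefl at 22.7, the oxysterol-binding protein gene Osbpl6 at 19.3 and Tmem200a at 14.6. Nefl overlaps Nefm on the opposite strand (chromosome 14), which was also higher (log2 fold change 3.75), and the sources used here do not give whether strand was used in counting. In the 15 libraries of the 5 lines outside the comparison, 3 of the 14 genes also stayed below 1 TPM, namely Cldn6, Tmem200a and Foxa1, a pioneer transcription factor of endodermal epithelia. Sox2 reached 11.6 TPM in MC38 and Osbpl6 22.3 TPM in B16F10.

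Of the ligands of the epidermal growth factor receptor (EGFR), Ereg and Btc were higher throughout in the CT26 family, while the gene of the receptor was lower throughout. Ereg (epiregulin) was picked by rule, and the rest of the ligand and receptor family was added after its values were seen. Ereg stood at 97.2, 87.6 and 78.3 TPM in CT26 and 37.5, 56.3 and 58.9 in CT26NYESO1, against 10.3, 13.1 and 8.96 in CMS5a and at most 0.131 TPM in EMT6 and Renca. Btc (betacellulin) stood at 51.0, 56.8 and 48.4 TPM in CT26, 9.26, 18.0 and 18.5 in CT26NYESO1 and 2.29, 3.11 and 3.96 in EMT6, and stayed below 0.2 TPM in CMS5a and Renca. The groups did not overlap for either ligand, and the log2 fold changes of 4.85 ± 0.12 and 4.13 ± 0.14 (limma adjusted p = 3.5e-13 and 1.1e-11) held against each line. Hbegf, the heparin-binding ligand, stood at 111, 143 and 113 TPM in CT26 and 52.7, 80.7 and 73.8 in CT26NYESO1, against 53.6, 47.2 and 57.6 in EMT6 and at most 19.8 TPM in CMS5a and Renca. It was called against the mean (log2 fold change 1.82 ± 0.11) but not against EMT6, where the difference was 0.78. Nrg1, a ligand of the related receptors ERBB3 and ERBB4, was higher throughout at 2.50 ± 0.14. Tgfa, at 1.85 ± 0.07, was called against the mean, with 0.30 against EMT6. Areg was not called against the mean (0.76 ± 0.16), with -3.01 against EMT6, 2.65 against CMS5a and 2.63 against Renca. Egf stayed at or below 1.44 TPM in all 15 libraries and was not called, and Epgn did not reach the level needed for testing.

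Egfr stood at 0.331, 0.480 and 0.646 TPM in CT26 and 0.417, 0.348 and 0.307 in CT26NYESO1, at 10.0, 7.34 and 6.77 in EMT6, 2.65, 3.39 and 2.60 in CMS5a and 2.16, 4.92 and 4.39 in Renca. All 6 family libraries lay below all 9 others, and the fall of 1.94 on the log2 scale (limma adjusted p = 2.2e-08) held throughout. Of the other receptors, Erbb2 did not pass the test, with a difference of -0.15 ± 0.12, and neither did Erbb3 (-0.32 ± 0.14), while Erbb4 was listed at or near 0 in every library. Of 7 genes known as targets or feedback inhibitors of the mitogen-activated kinase pathway below such receptors, also added after their values were seen, 5 were higher, 1 was lower and 1 was not called. Of all genes tested, 7.45% were higher and 8.90% lower. Genes chosen on their values cannot be weighed against those shares, so the count is only a description. Spry4 stood at 85.3, 72.3 and 76.6 TPM in CT26 and 37.5, 27.5 and 33.4 in CT26NYESO1 and at most at 3.33 TPM in the others (log2 fold change 3.88 ± 0.12). Etv4 was higher throughout by 2.32 ± 0.13, and Dusp6 by 1.37 ± 0.10 against the mean, with 0.62 against EMT6. Dusp4 and Etv5 rose by 2.22 ± 0.23 and 1.20 ± 0.13 against the mean, and neither was called against EMT6. Spry1 went the other way and was lower throughout at -2.74 ± 0.38, with at most 0.975 TPM in the family, though Renca replicate 1 was listed at 0. Spry2 was not called (0.89 ± 0.12).

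Regulators of the cell cycle were measured in a list of growth control genes, of which 22 were tested, 4 were higher and 4 lower, with a median of 0.32. Cdkn2a, which encodes the cell cycle inhibitor p16 and the p53 activator p19ARF (chromosome 4, 89274471 to 89294653, minus strand), stood at 0.313, 0.365 and 0.483 TPM in CT26 and 0.245, 0.386 and 0.406 in CT26NYESO1. It stood at 18.3, 7.97 and 10.0 TPM in EMT6, 107, 106 and 107 in CMS5a and 320.0, 243 and 259 in Renca. No family library reached 0.5 TPM and no other library fell below 7 TPM. Cdkn2a is among the genes picked for under 0.5 TPM in the family and 5 TPM or more elsewhere, so this gap restates the choice. The log2 fold change was -5.71 ± 0.14 (limma adjusted p = 4.0e-13). Its neighbour Cdkn2b, a second inhibitor of the same kinases, was at most 0.552 TPM in the CT26 family, with 12.9, 11.7 and 12.9 in CMS5a and 27.7, 22.2 and 22.3 in Renca. EMT6 was also low at 1.01, 0.934 and 0.570 TPM, and the difference from EMT6 was -0.49, against -2.71 ± 0.10 for the mean. Mtap, an enzyme of methionine salvage that lies on the other side of Cdkn2a (chromosome 4, 89137122 to 89181081, plus strand), stood at 146, 147 and 138 TPM in CT26 and 176, 179.5 and 173 in CT26NYESO1, above every other library (highest 120.1 TPM). The low values at Cdkn2a and Cdkn2b therefore did not extend to Mtap, which was higher by 1.43 ± 0.10.

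Of the 3 D-type cyclins, which release cells into the cycle, Ccnd1 and Ccnd2 were higher. Ccnd1 stood at 595, 470.2 and 563 TPM in CT26 and 648, 538 and 632 in CT26NYESO1, 208, 264 and 251 in EMT6, 77.4, 91.9 and 72.8 in CMS5a and 41.7, 47.5 and 68.9 in Renca. It was higher throughout, by 2.50 ± 0.11 against the mean. Ccnd2 rose by 2.58 ± 0.15, with 0.49 against CMS5a, where it was not called. Ccnd3, added after its values were seen, was not called (0.07 ± 0.10). Fgfr1, a fibroblast growth factor receptor of the same list, was lower throughout (-2.36 ± 0.15) and also lower in CT26NYESO1 than in CT26. A list of 18 proliferation genes had 1 member called, Aurkb, a mitotic kinase, at 1.04 ± 0.09, and a median of 0.30. Aurkb lost the call with scaling by median ratios, at 0.99, and without EMT6 or Renca, at 0.90 and 0.92.

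**Figure D1:**
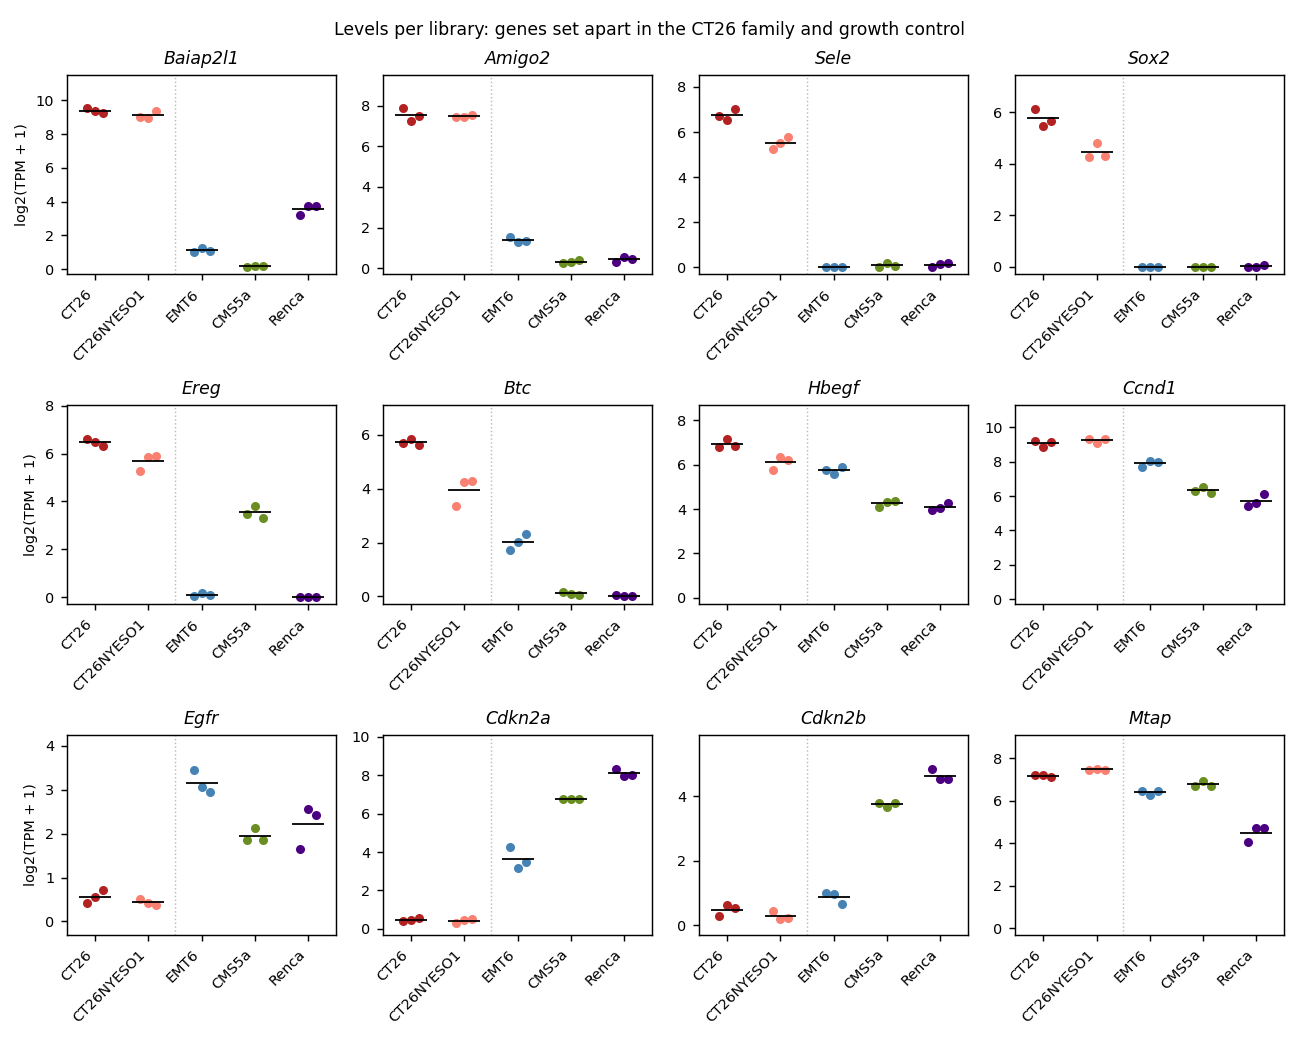
Level of 12 genes in each of the 15 libraries as log2(TPM + 1), with 1 point per library, a bar at the mean of each line, and CT26 lines left of the dotted line. Baiap2l1, Amigo2, Sele, Sox2 and Ereg were high in all 6 family libraries, Egfr and Cdkn2a were low in all 6, Cdkn2b was low in EMT6 too, and Mtap was present in every line.

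The largest falls called throughout were in Ccn5, Gstt1, Cdkn2a and Acpp. Ccn5, a matricellular protein of connective tissue, stayed between 0.171 and 0.863 TPM in the CT26 family and between 47.3 and 320.3 TPM in the others (log2 fold change -6.30 ± 0.18). Gstt1, a glutathione transferase that detoxifies small molecules, stood at 0.143, 0 and 0.248 TPM in CT26 and 0.621, 0.282 and 0.247 in CT26NYESO1, with no other library below 46.5 TPM. Slpi, a secreted inhibitor of leukocyte proteases, fell by 5.36 on the log2 scale, from 64.3 TPM or more in the others to at most 6.49 TPM. Acpp, a secreted acid phosphatase, had a log2 fold change of -5.48 ± 0.13, and Ptprk, a receptor phosphatase that dampens growth signals at cell contacts, one of -5.13 ± 0.11. Out of the same 55291 symbols, 6 genes were under 0.5 TPM in all 6 family libraries and at 5 TPM or more in all 9 others. Among them were Cdkn2a, Acpp, Ptprk, the matrix protease gene Adamts5 and Ccbe1, which acts in lymphatic vessel growth. The gap between the groups at these genes restates the cut-off. None of these 6 stayed below 1 TPM in all of the 15 libraries outside the comparison, where Cdkn2a peaked at 11.0 TPM in MC38 and Ccbe1 at 80.1 TPM in LL2.

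The lists of cell types, tissues and functions were compared by how many members were called and by their median log2 fold change, to be read against 7.45% of all genes called higher, 8.90% called lower and a median of 0.01. The lists were written with earlier results of these data known, so their direction is a description. Up to 4 members of each list were picked by the size of their change, and the others named beside them, such as Col1a1, Cd8a, Csf1r, Ifng and Hoxc6, were chosen after their values were seen. The furthest above were the interferon-induced GTPases, genes of CD8 T cells and cytotoxicity, mesenchymal genes, genes of NK cells and genes of basement membrane and adhesion. The furthest below were endothelium, simple epithelium and fibroblasts with matrix. Several medians depended on the line they were set against, as the plot of list medians by line shows.

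**Figure D2:**
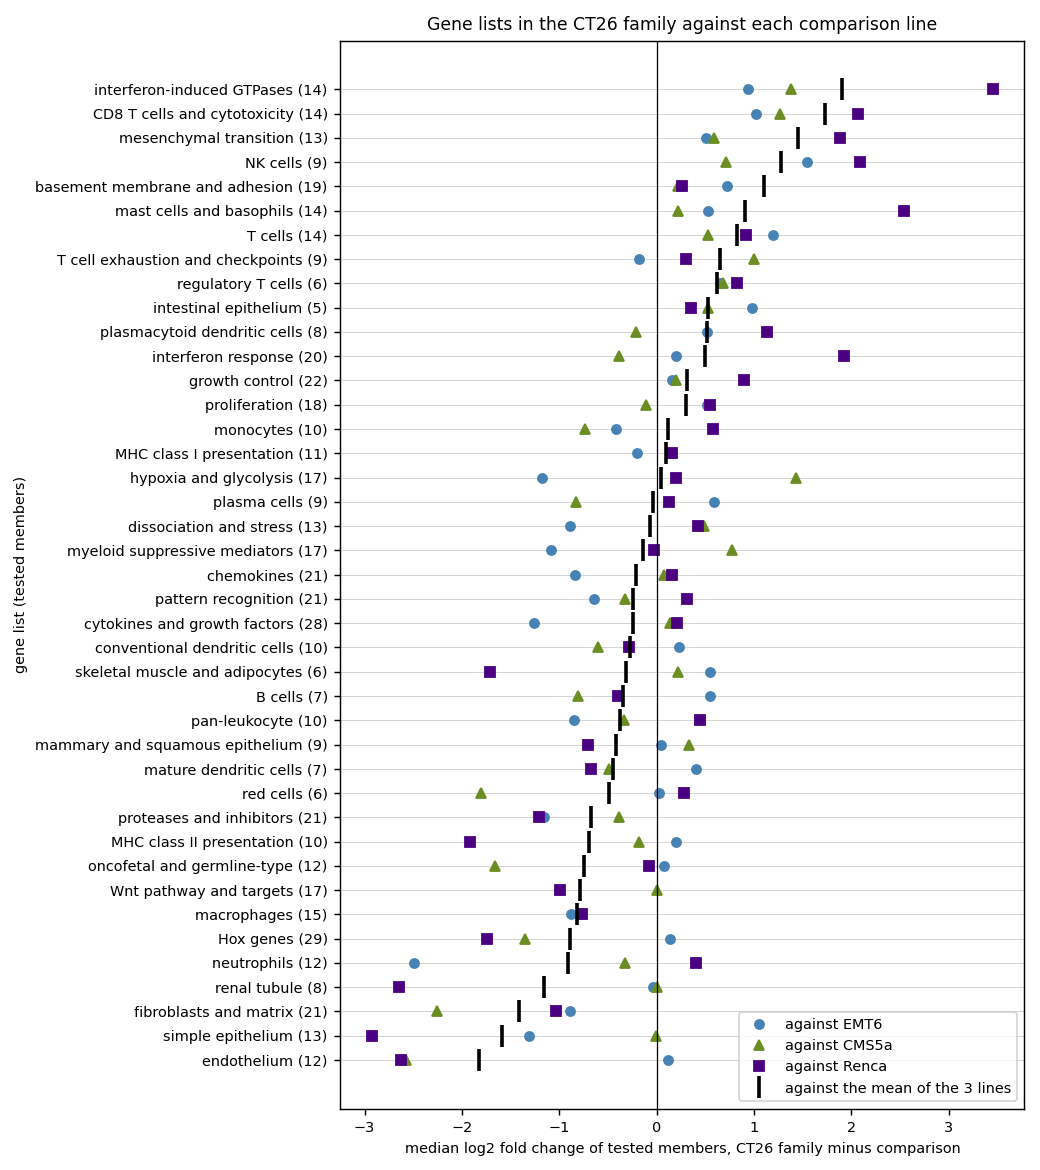
Median log2 fold change (x axis) of the tested members of each gene list (y axis, number tested in brackets), for the CT26 family against EMT6, CMS5a and Renca in turn and against their mean (black bar). The interferon-induced GTPases lay at 0.94 against EMT6, 1.38 against CMS5a and 3.46 against Renca, and endothelium at 0.12 against EMT6 and below -2.5 against both others.

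The CT26 family carried few transcripts of its tissue of origin. Of 18 intestinal genes, 5 were tested, and the master regulators of intestinal identity were close to 0. Cdx2 was at most 0.801 TPM in the family, Hnf4a was listed at 0 there, and both missed the level needed for testing. Of the 5, Krt20, a keratin of mature gut epithelium, was higher throughout at 4.53 ± 0.12. Its level differed between the 2 lines, with 136, 119 and 116 TPM in CT26 and 3.88, 6.56 and 4.39 in CT26NYESO1. The adhesion gene Cdh17 was lower at -1.40 ± 0.10, which without EMT6 came to -0.39.

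Of 13 simple-epithelium genes, 8 were lower and 0 higher, at a median of -1.59. Krt8, the main keratin of such epithelia, stood at no more than 0.773 TPM in the CT26 family and 1179 TPM at the highest elsewhere. It averaged 609.7 ± 36.9 TPM in EMT6 and 926 ± 219 in Renca (SD, n = 3) but 0.368 ± 0.0991 in CMS5a, so its difference was -8.93 against EMT6, -0.12 against CMS5a and -9.51 against Renca. Cdh1, the epithelial cadherin, fell by 2.05 on the log2 scale against the mean and stood at 55.3, 73.5 and 73.0 TPM in Renca and at most 5.46 TPM in any other library. The claudins Cldn3 and Cldn4 were listed at or near 0 in every line but Renca. Without Renca, 2 of the 13 were lower and the median was -0.60. With Renca left out Cdh1 came to -0.60, Cldn3 to -0.01 and Cldn4 to 0.00515, so their calls rest on Renca.

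Mesenchymal genes went the other way, with 8 of 13 higher and 1 lower at a median of 1.46. Prrx1, a transcription factor of limb and connective tissue mesenchyme, stood at 181, 117 and 148 TPM in CT26 and 93.7, 85.0 and 94.9 in CT26NYESO1, 28.1, 27.1 and 32.3 in EMT6, 50.9, 61.1 and 39.3 in CMS5a and 1.83, 1.94 and 2.46 in Renca. It was the only member of the list called throughout, at 2.80 ± 0.11. Twist1, another such factor, rose by 2.34 ± 0.11 and lay above all 9 other libraries in each family library, with 0.87 against EMT6. Cdh2, the neural and mesenchymal cadherin, rose by 3.16 ± 0.10 against the mean but stood at 33.5, 41.6 and 32.3 TPM in the fibrosarcoma CMS5a, close to the 27.5 to 34.4 TPM of the family. S100a4, a motility protein, rose by 1.68 ± 0.15, which without Renca came to 0.95. The 1 lower gene was Snai1, at -1.14 ± 0.19.

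Fibroblast and fibrillar matrix genes were low. Of 21 tested, 13 were lower and 0 higher at a median of -1.41, and the summed level of the list was 1171 to 1995 TPM in the CT26 family, 3415 to 4903 in EMT6, 7907 to 9709 in CMS5a and 1419 to 2393 in Renca. In bulk RNA, fewer cells of a type and less RNA per cell cannot be told apart. Lox, which cross-links collagen, stood at 1.61, 4.39 and 7.73 TPM in CT26 and 3.68, 3.78 and 4.84 in CT26NYESO1, against 66.2, 61.6 and 66.0 in EMT6, 152, 219 and 127 in CMS5a and 45.6, 100.1 and 102 in Renca. The groups did not overlap and the log2 fold change was -4.23 ± 0.24 (limma adjusted p = 2.0e-09). Acta2, which encodes smooth muscle actin and marks myofibroblasts, was at most 5.08 TPM in the CT26 family and at least 17.9 TPM elsewhere, highest in EMT6 at 406, 275 and 359.7 TPM (-3.93 ± 0.16). Col1a1, the main chain of type I collagen, was also lower throughout at -2.03 ± 0.23. Other collagens depended on the line. Col12a1 came to -5.16 against EMT6, 0.59 against CMS5a and -4.40 against Renca, and Col5a2, at -2.37 ± 0.22 against the mean, came to -0.61 without CMS5a. Without CMS5a 8 of the 21 were lower and 1 higher, and the median was -0.69.

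Of 19 basement membrane and adhesion genes tested, 10 were higher and 2 lower at a median of 1.11, which came to 0.04 over all 22 listed genes with no filter on low values. The median was 1.17 for CT26 and 0.28 for CT26NYESO1, and the summed level, 923 to 1493 TPM in the family, overlapped all 3 other lines. Itga6, the laminin-binding integrin chain, stood at 194, 142 and 173 TPM in CT26 and 99.5, 89.6 and 105 in CT26NYESO1, and at most at 25.6 TPM in the others, higher throughout at 2.78 ± 0.14. Nid1, which links laminin to collagen IV, was also higher throughout at 2.0 ± 0.20. The laminin chain genes rose against the mean, Lama5 by 2.72 ± 0.19 and Lamb1 by 1.98 ± 0.11, but Lama5 differed by only 0.12 from Renca and Lamb1 by 0.51 from EMT6. The median of the list was 0.73 against EMT6, 0.22 against CMS5a and 0.26 against Renca, and without EMT6 it came to 0.18 with 7 of 19 higher.

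Of 21 proteases and inhibitors, which set how fast the matrix is cut, 3 were higher, 8 lower and 10 not called, and 5 of the 8 were lower throughout. Mmp2, a gelatinase of stromal cells, stood at 3.16, 7.54 and 8.55 TPM in CT26 and 7.09, 2.43 and 3.17 in CT26NYESO1, and at 239, 143 and 149 in EMT6, 559, 665 and 608 in CMS5a and 57.3, 83.5 and 77.1 in Renca, with a log2 fold change of -5.08 ± 0.22. The aggrecan-cutting Adamts5 fell by 4.70 on the log2 scale, the tissue plasminogen activator gene Plat by 2.85 and the urokinase gene Plau by 2.06. Htra1, a secreted serine protease, fell by 5.04, from at least 29.6 TPM to at most 9.94 TPM. Mmp3, stromelysin, went up against the mean by 2.75 ± 0.23, but this was a property of CT26 at 68.9, 211 and 128 TPM, while CT26NYESO1 at 5.80, 10.6 and 4.67 TPM lay between the lowest EMT6 and the highest Renca library. Plaur, the urokinase receptor, rose by 1.48 ± 0.07 against the mean, with 0.22 against EMT6.

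**Figure D3:**
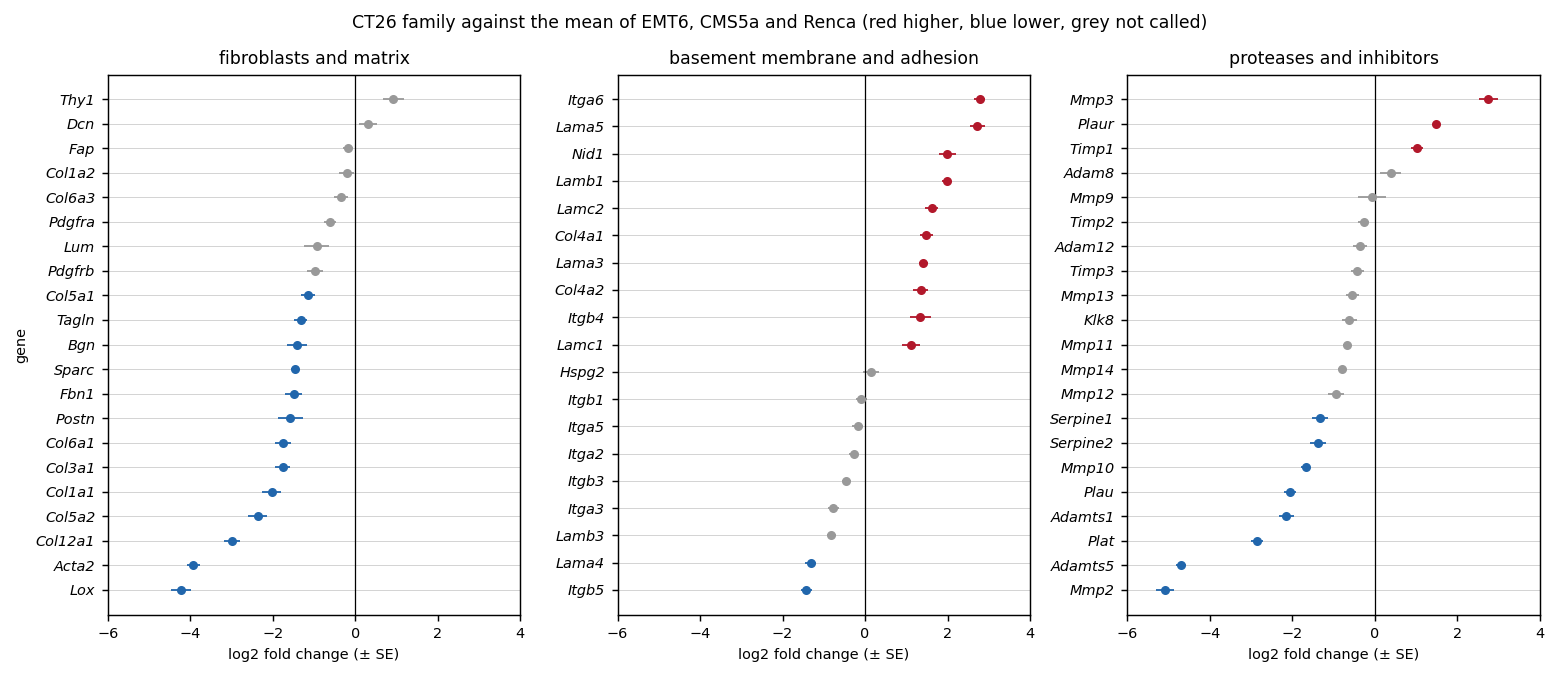
Log2 fold change of the CT26 family against the mean of EMT6, CMS5a and Renca for each tested gene of 3 lists, with the SE of the limma fit as bars (red higher, blue lower, grey not called). Fibroblast and matrix genes lay mostly left of 0 with 13 of 21 called, basement membrane genes mostly right of 0 with 10 of 19 called higher.

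Transcripts of killer lymphocytes were high in the CT26 family. Of 14 genes of CD8 T cells and cytotoxicity, 11 were higher and 0 lower at a median of 1.73, and medians were 1.02 against EMT6, 1.27 against CMS5a and 2.07 against Renca. Gzmb, granzyme B (chromosome 14, 56258838 to 56262260, minus strand), stood at 129, 46.5 and 178 TPM in CT26 and 56.8, 46.8 and 42.4 in CT26NYESO1, against 7.87, 21.7 and 18.0 in EMT6, 9.14, 9.25 and 8.10 in CMS5a and 0.216, 0.310 and 0.546 in Renca. Every family library lay above every other library, with a log2 fold change of 3.59 ± 0.26 (limma adjusted p = 2.6e-08), which came to 3.87 without CT26 replicate 2 and 2.53 without Renca. Prf1, the pore-forming perforin, stood at 50.5, 16.7 and 69.9 TPM in CT26 and 39.2, 24.4 and 22.2 in CT26NYESO1, against 1.72, 7.02 and 6.13 in EMT6, 3.70, 3.35 and 3.71 in CMS5a and at most 0.761 TPM in Renca. It too was separate in all 15 libraries and higher throughout at 3.32 ± 0.30. Gzmc was higher throughout at 3.46 ± 0.20, and Gzmf rose by 2.82 ± 0.43 against the mean, with 0.76 against EMT6. Granzyme genes are close paralogs that can share reads, so single members are uncertain. Cd8a itself rose by 1.58 ± 0.33, with 6.61, 1.44 and 5.11 TPM in CT26, 14.5, 9.61 and 8.76 in CT26NYESO1 and 0.134, 4.37 and 4.09 in EMT6, so that the groups overlapped.

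NK and T cell genes moved in the same direction by smaller amounts. Of 9 NK cell genes, 7 were higher and 0 lower at a median of 1.28. Ncr1, an activating receptor that marks NK cells, stood at 14.5, 9.47 and 19.7 TPM in CT26 and 15.3, 15.8 and 9.75 in CT26NYESO1, 1.06, 2.77 and 2.68 in EMT6, 10.5, 4.93 and 6.39 in CMS5a and 0.177, 1.25 and 0.614 in Renca. It rose by 2.11 ± 0.22, and CMS5a replicate 1 at 10.5 TPM overlapped the family. Gzma was higher throughout at 2.70 ± 0.34, and the chemokine Xcl1 and the receptor Klre1 rose by 1.57 and 1.54. Of 14 T cell genes, 6 were higher and 0 lower at a median of 0.82. The T cell receptor chain genes Trbc2 and Trac rose by 1.47 ± 0.29 and 1.17 ± 0.28, and the CD3 chain genes Cd3e and Cd3g by 1.40 ± 0.26 and 1.38 ± 0.29. EMT6 replicate 1 was the lowest library for each of these 4, and Trac lost its call without that library, at 0.95, and without EMT6, at 0.94. Against CMS5a the median of the T cell list was 0.53 and 1 of 14 was called. The summed T cell level ran from 63.2 to 198 TPM in the CT26 family, so that its lowest library lay within the range of CMS5a and Renca.

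Inhibitory receptors of T cells were mixed. Of 9 exhaustion and checkpoint genes, 2 were higher and 1 lower. Tigit, a receptor that restrains T and NK cells, stood at 21.8, 16.8 and 22.7 TPM in CT26 and 17.4, 20.8 and 18.1 in CT26NYESO1, 3.88, 7.26 and 9.59 in EMT6, 2.36, 2.71 and 3.43 in CMS5a and 0.0557, 0.339 and 0.438 in Renca. Every family library lay above every other library, and it was higher throughout at 2.63 ± 0.16 (limma adjusted p = 3.5e-09). Pdcd1, the gene of PD-1, was also higher throughout at 1.75 ± 0.23, with 3.95, 1.72 and 5.0 TPM in CT26 and 9.78, 5.92 and 7.08 in CT26NYESO1, but CT26 replicate 2, the lowest of them, lay below EMT6 replicates 2 and 3. Havcr2, the gene of TIM-3, which myeloid cells express too, was lower by 1.05 on the log2 scale. Its fall came to -0.42 without EMT6, and it lost the call without CT26 replicate 2 (-0.91), CT26NYESO1 replicate 2 (-0.93), EMT6 replicate 2 (-1.0) or Renca replicate 3 (-0.98). None of 6 regulatory T cell genes was called by limma, with 4 above 0 and 0 below at an unadjusted p under 0.05. None of 7 B cell genes was called, with 1 above and 4 below at that p. Foxp3, the defining factor of regulatory T cells, differed by 0.54 ± 0.14, under the fold threshold, with a limma adjusted p of 0.005.

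All 14 interferon-induced GTPases were higher, with a median of 1.90, and none had all 6 family libraries above all 9 others. These proteins coat and disrupt the vacuoles of intracellular microbes. Tgtp1 was the 1 member called throughout, at 2.62 ± 0.45. It stood at 102, 20.7 and 178 TPM in CT26 and 95.1, 87.7 and 73.9 in CT26NYESO1, 3.82, 22.3 and 29.8 in EMT6, 28.4, 25.8 and 23.7 in CMS5a and 2.45, 5.26 and 5.95 in Renca. CT26 replicate 2 overlapped EMT6 and CMS5a, and the other 5 family libraries lay above all others. Gbp4 stood at 132, 23.6 and 249 TPM in CT26 and 122, 83.0 and 90.2 in CT26NYESO1, 15.5, 91.5 and 116 in EMT6 and at most 14.9 TPM in CMS5a and Renca, with a log2 fold change of 2.87 ± 0.48 that came to 0.77 against EMT6. Without CT26 replicate 2 the fold changes were 3.06 for Tgtp1 and 3.36 for Gbp4, and without Renca 1.98 and 1.81. Iigp1 and Tgtp2 rose by 2.53 ± 0.56 and 2.41 ± 0.40. Against each line the counts were 2 of 14 higher for EMT6, 9 for CMS5a and 14 for Renca, and without Renca 9 of 14 were called at a median of 1.22. With 1 library left out at a time, 13 or 14 of the 14 were called. The pan-leukocyte level was lowest in Renca, and of the 6 family libraries CT26 replicate 2 had the highest share of mitochondrial transcripts, the other 5 holding 11.0% to 16.9% of TPM. The part of either in these results was not tested. Tgtp1 and Tgtp2 are near-identical copies, the Gbp genes are close paralogs, and Igtp overlaps the annotated span of Irgm2 on the same strand, so reads may be shared within each group.

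Stretches before the start of some of these genes are shown. All 14 listed genes rose, so shared letters do not set apart the members that moved. In the RefSeq promoter table (GRCm38.p6), 9 of the 14 genes matched, with 10 windows, and the 250 bases before each start were searched on both strands. The first pattern was TTCNNNGAA, the form of a gamma-activated site, and the second GAAANNGAAA, the core form of an interferon-stimulated response element, with overlapping matches counted. The first was found in 7.02% of 32851 windows searched, the second in 2.98% and both in 0.332%. Of the 10 GTPase windows, 6 held the first, 9 the second and 6 both. Capitals mark the matches, and each sequence is given 5′ to 3′ on the strand of the gene, at chr11:58214887-58214937 (plus) for Irgm2, chr11:58199496-58199546 (plus) for Igtp, chr11:48992299-48992349 (minus) for Tgtp1, chr11:49064258-49064308 (minus) for Tgtp2 and chr3:142620589-142620628 (plus) for Gbp2.
Irgm2: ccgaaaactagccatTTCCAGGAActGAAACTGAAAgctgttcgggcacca
Igtp: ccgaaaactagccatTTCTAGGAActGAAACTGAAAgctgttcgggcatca
Tgtp1: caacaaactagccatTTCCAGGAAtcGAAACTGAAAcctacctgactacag
Tgtp2: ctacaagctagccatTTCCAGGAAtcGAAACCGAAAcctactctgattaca
Gbp2: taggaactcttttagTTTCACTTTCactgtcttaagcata
In the first 4 windows both patterns stood side by side, and in Gbp2 the second was found on the opposite strand and the first not at all. Of the genes not shown, Gbp5 and Gbp7 held both patterns, with the second on the opposite strand. Irgm1 and 1 window of Gbp3 held the second only, and the other Gbp3 window held neither. Irgm1 and Gbp3 rose by 1.08 and 1.43. Igtp rose by 1.67 ± 0.38, Irgm2 by 1.87 ± 0.35 and Gbp2 by 1.50 ± 0.34, and Gbp2 came to -0.86 against EMT6. A match is a description of letters and does not show that a factor binds there.

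The wider interferon response was less uniform. Of 20 genes, 6 were higher and 0 lower at a median of 0.50, with medians of 0.20 against EMT6, -0.39 against CMS5a and 1.93 against Renca. Without Renca 1 was higher and 1 lower at a median of -0.09. Cxcl9, a T cell attractant induced by interferon gamma, stood at 14.0, 7.61 and 41.6 TPM in CT26 and 17.4, 16.7 and 24.8 in CT26NYESO1, 0.919, 13.8 and 18.6 in EMT6, 8.0, 5.83 and 6.86 in CMS5a and 0.894, 2.17 and 1.92 in Renca, a rise of 1.78 ± 0.45. The family overlapped EMT6, and CT26 replicate 2 also lay below the highest CMS5a library. The RNA sensor relative Oasl2 rose by 1.71 ± 0.29 and the nucleic acid sensor Zbp1 by 1.41 ± 0.29. Without Renca Cxcl9, Oasl2 and Zbp1 lost the call, at 1.24, 0.79 and 0.69. Isg15 and Rsad2, known mainly as targets of type I interferon and singled out after their values were seen, were not called, with -0.63 ± 0.16 and -0.62 ± 0.16, and Rsad2 came to -1.77 against EMT6, -1.27 against CMS5a and 1.18 against Renca. Ifng, the gene of interferon gamma, was called at 1.07 ± 0.29, at no more than 4.18 TPM. None of 11 MHC class I genes was called against the mean by limma, with 3 above 0 and 2 below at an unadjusted p under 0.05. None of 10 MHC class II genes was called, with 0 above and 2 below at that p. For class II the median was -0.70, and 8 of 10 were lower against Renca. Without EMT6 6 of the 10 were lower.

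**Figure D4:**
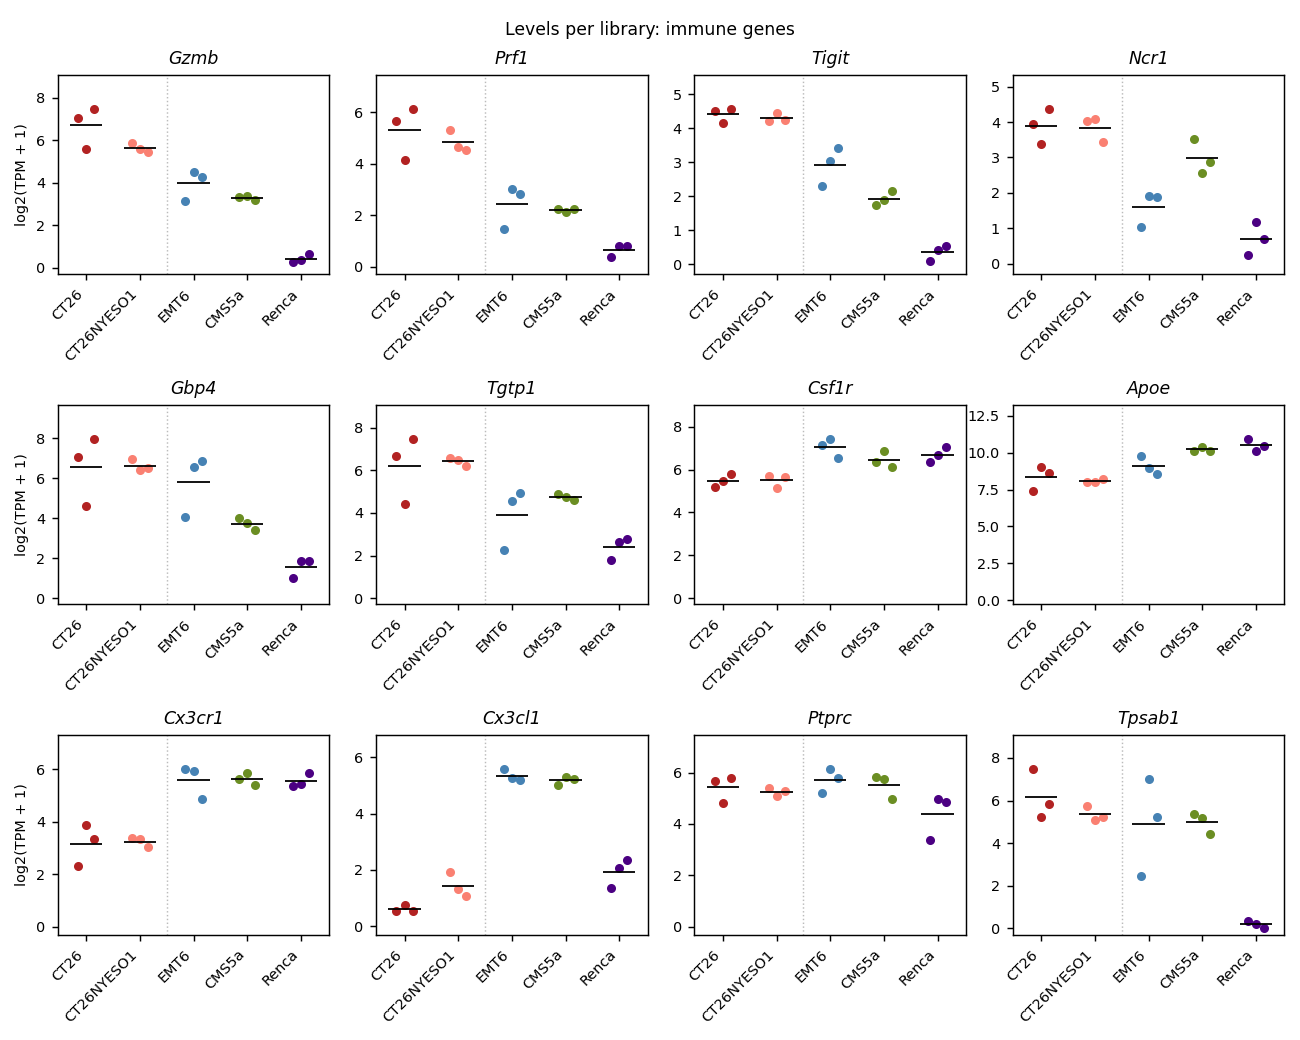
Level of 12 immune genes in each of the 15 libraries as log2(TPM + 1), with 1 point per library, a bar at the mean of each line, and CT26 lines left of the dotted line. Gzmb and Prf1 were higher in all 6 family libraries than in all 9 others, Cx3cr1 was lower in all 6, and for Gbp4 and Tgtp1 the lowest family point is CT26 replicate 2.

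Macrophage genes were lower in part. Of 15 tested, 6 were lower and 1 higher at a median of -0.82, and none was called throughout. The summed level was 934 to 1511 TPM in the CT26 family, below 1842 to 2723 in EMT6, 2355 to 3085 in CMS5a and 3661 to 5047 in Renca. Csf1r, the receptor for the macrophage growth factor, stood at 35.5, 42.9 and 54.4 TPM in CT26 and 50.6, 34.8 and 48.9 in CT26NYESO1, 141, 174 and 94.0 in EMT6, 80.2, 118 and 69.4 in CMS5a and 81.4, 103 and 133 in Renca. It was lower in all 6 libraries than in the other 9, with a log2 fold change of -1.25 ± 0.17. The lipoprotein gene Apoe fell by 1.72 on the log2 scale, the lipid receptor gene Trem2 by 1.54 and the lysosomal gene Cd68 by 1.54. Cd68 came to -0.99 without Renca. Gpnmb, a lysosomal glycoprotein, stood at 636, 929 and 1033 TPM in Renca, and its log2 fold change of -1.65 came to 0.34 without Renca. The 1 higher gene was Lyve1, a receptor of tissue macrophages and lymphatic vessels, at 1.20 ± 0.31. Without Renca the list had 3 lower and 1 higher, at a median of -0.83.

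The fractalkine receptor and its ligand were both low. Cx3cr1, carried by patrolling monocytes and tissue macrophages, stood at 3.91, 13.6 and 9.06 TPM in CT26 and 9.38, 9.13 and 7.12 in CT26NYESO1, 63.3, 60.4 and 28.5 in EMT6, 48.7, 57.6 and 40.8 in CMS5a and 40.3, 42.9 and 57.0 in Renca. The groups did not overlap, and the difference was nearly the same against each line: -2.40 against EMT6, -2.42 against CMS5a and -2.35 against Renca (limma adjusted p = 4.8e-07 against the mean). The monocyte list as a whole did not go this way: 2 of its 10 genes were lower, 8 were not called, and the median was 0.12. The ligand Cx3cl1 stood at 0.447, 0.680 and 0.471 TPM in CT26, 2.78, 1.48 and 1.13 in CT26NYESO1 and 1.59, 3.16 and 4.13 in Renca, against 47.0, 37.4 and 35.6 in EMT6 and 31.7, 38.3 and 36.7 in CMS5a. It fell by 3.13 on the log2 scale against the mean, and against Renca the difference of -0.90 was below the threshold on fold change. Of 21 chemokines, 5 were lower and 0 higher, among them the neutrophil attractants Cxcl3 at -2.13 ± 0.18 and Cxcl5 at -1.51 ± 0.19 and the T cell attractant Ccl17 at -1.95 ± 0.20. Cxcl5 came to -0.08 without EMT6, and Ccl17 to -0.92 without Renca.

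The counts for neutrophil and mast cell genes each depended on a single line. Of 12 neutrophil genes, 6 were lower and 0 higher at a median of -0.91, but without EMT6 none was called by limma, with 2 above 0 and 3 below at an unadjusted p under 0.05, and the median was 0.05. S100a8, a subunit of calprotectin, stood at 267, 351 and 302 TPM in EMT6, against at most 36.4 in the CT26 family and 39.9, 20.5 and 18.0 in Renca. S100a9, its partner, fell by 1.31 on the log2 scale, Il1r2 by 1.28 and Stfa2l1 by 1.20, and without EMT6 these came to -0.26, -0.70 and -0.04, with S100a8 at -0.43. Of 14 mast cell and basophil genes, 7 were higher and 0 lower. Tpsab1, a tryptase, stood at 178, 36.2 and 56.2 TPM in CT26 and 53.1, 33.1 and 36.5 in CT26NYESO1, 4.47, 127 and 36.7 in EMT6, 40.4, 35.0 and 20.8 in CMS5a and 0.283, 0.144 and 0 in Renca. Its rise of 2.41 ± 0.53 came to 0.82 without Renca and lost the call. The chymase gene Cma1 went from 1.92 to 0.78 and the carboxypeptidase gene Cpa3 from 1.84 to 0.77. Without Renca 1 of the 14 was higher and 2 were lower. Gata2, which mast cells share with other cells, rose by 2.12 ± 0.11. Kitl, the growth factor of mast cells, was higher by 2.03 ± 0.17 and is given as a gene chosen after its values were seen.

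Endothelial genes were low against CMS5a and Renca. Of 12 tested, 10 were lower and 0 higher at a median of -1.82, and 11 of 12 were called against CMS5a and 12 against Renca. Against EMT6 limma called 0 of 12, with 3 above 0 and 0 below at an unadjusted p under 0.05. The summed level was 22.1 to 45.8 TPM in the CT26 family, 23.8 to 32.7 in EMT6, 255 to 303 in CMS5a and 265 to 349.7 in Renca. Emcn, a surface sialomucin of veins and capillaries, stood at 0.553, 2.35 and 1.36 TPM in CT26 and 0.859, 0.935 and 0.706 in CT26NYESO1, 2.12, 0.437 and 0.385 in EMT6, 27.5, 16.7 and 29.3 in CMS5a and 25.6, 12.8 and 18.3 in Renca. The family and EMT6 overlapped and both other lines stood apart. The junction genes Esam and Cldn5 fell by 2.09 and 2.03 on the log2 scale, and Esam came to -0.97 without Renca. Without CMS5a 6 of the 12 were lower, at a median of -1.11, and without Renca 7, at -1.15. The selectin Sele, described above, and Esm1 thus rose in libraries with low levels of the other endothelial genes.

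Among 28 cytokines and growth factors, 5 were higher and 5 lower, or 8 and 3 without EMT6. Ereg was the largest rise, as above, and Il11, a cytokine of stromal and epithelial stress, rose by 2.27 ± 0.13, with 20.9, 18.9 and 18.1 TPM in CT26, 8.68, 18.1 and 11.8 in CT26NYESO1 and 10.8, 12.6 and 12.9 in EMT6 against at most 1.0 TPM in CMS5a and Renca. The largest falls were in Tgfb2 and Pdgfb, both called throughout. Tgfb2, which drives matrix production, stayed between 0.0615 and 0.259 TPM in the CT26 family and reached 11.9 TPM in the others (-2.59 ± 0.11). Pdgfb, a mitogen of pericytes and fibroblasts, stood at 2.14 to 3.35 TPM in the family and at least 6.17 TPM in the others (-2.22 ± 0.13). Of 17 myeloid suppressive mediators, 4 were higher and 3 lower, or 4 and 0 without EMT6, 4 and 5 without CMS5a and 2 and 2 without Renca. Arg1, an arginine-degrading enzyme of suppressive myeloid cells, rose by 2.17 ± 0.30 against the mean, with -1.60 against EMT6. Ptges, of prostaglandin synthesis, rose by 1.78 ± 0.11, or 0.36 without Renca. Ido1, which degrades tryptophan, was low at no more than 5.21 TPM but higher throughout at 1.37 ± 0.28.

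Hox genes, which set position along the body axis, were lower against CMS5a and Renca. Of 29 Hox genes tested, 12 were lower and 1 higher, at a median of -0.89. Without EMT6 20 were lower and 1 higher. Hoxc10 stayed at or below 0.130 TPM in the CT26 family and stood at 0.0667, 0 and 0 in EMT6, against 29.1, 36.9 and 33.8 in CMS5a and 18.3, 28.1 and 26.9 in Renca. Hoxd9, Hoxb7 and Hoxa11 were likewise near 0 in the family and EMT6, with log2 fold changes of -2.90, -2.90 and -2.75, and against EMT6 7 of the 29 were higher and 1 lower. The 1 higher gene, Hoxc6, rose throughout by 1.78 ± 0.14. Of 17 genes of the Wnt pathway, 7 were lower and 3 higher. Wnt7b, a ligand, was listed at or near 0 in the family and lower throughout at -3.18 ± 0.09, and Notum, an inhibitor that is itself a target of the pathway, fell by 2.53 on the log2 scale, though it was listed at 0 in CMS5a too. Axin2, another such target, was at most 0.410 TPM in the family and at most 0.289 TPM in CMS5a, and stood at 9.27, 4.42 and 7.89 TPM in EMT6 and 7.53, 9.54 and 9.59 in Renca. Dkk2, a secreted antagonist, rose throughout by 3.69 ± 0.11. Of 12 oncofetal and germline genes tested, 2 were higher and 5 lower, at a median of -0.74. Without CMS5a 2 were higher and 1 lower, at a median of -0.06. Xlr3a and Igf2 had log2 fold changes of -3.07 and -1.88, and Igf2 came to -0.02 without CMS5a. The higher genes were Hmga2 and Rhox5. Hmga2, a chromatin protein of embryonic growth, stood at 234 to 284 TPM in the family and 86.9, 89.9 and 96.4 in EMT6. It stood at 37.0, 62.3 and 52.6 in CMS5a and at most 0.348 TPM in Renca, a rise of 3.85 ± 0.11 called throughout. Rhox5, an X-linked homeobox gene of germ cells and many tumours, was high in the family at 331 to 466 TPM and in CMS5a at 545, 518 and 614, but at most 2.70 TPM in EMT6 and Renca.

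CT26NYESO1 and CT26 differed from each other at 430 genes (2.63%), of which 76 were higher and 354 lower in CT26NYESO1. Of the genes called in the family comparison, 213 also differed between the 2 lines. The largest such differences were losses in CT26NYESO1. Aldh3a1, an aldehyde dehydrogenase, stood at 98.0, 52.1 and 74.6 TPM in CT26 and 0.141, 0 and 0.303 in CT26NYESO1, a difference of -6.01 ± 0.24 (limma adjusted p = 3.9e-09). Selp, the gene of P-selectin and like Sele on chromosome 1, stood at 42.0, 44.2 and 59.4 TPM in CT26 and 0.251, 0.379 and 0.411 in CT26NYESO1, within the range of the other 3 lines. Selp was thus high in CT26 alone among these 5 lines, whereas Sele was on in both CT26 lines. Krt20 and Plekha6, an adaptor of cell junctions, were lower in CT26NYESO1, with differences of -4.42 ± 0.19 and -4.25 ± 0.20. In the other direction, Pnma5 stood at 0.438, 1.90 and 1.08 TPM in CT26 and 55.5, 47.2 and 47.2 in CT26NYESO1, and also at 98.3, 99.7 and 82.1 in CMS5a. Inmt, a methyltransferase, was higher in CT26NYESO1 by 2.92 ± 0.62, with 2.20, 16.6 and 17.1 TPM in CT26 and 111, 126 and 30.1 in CT26NYESO1. Ccnb1ip1 was higher by 2.42 ± 0.32 and Cldn6 by 2.48 ± 0.16. Genes described above that were lower in CT26NYESO1 at the same threshold include Btc (-1.76), Spry4 (-1.23), Fgfr1 (-2.35) and Mmp3 (-4.02). The human antigen itself was not analysed here.

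**Figure D5:**
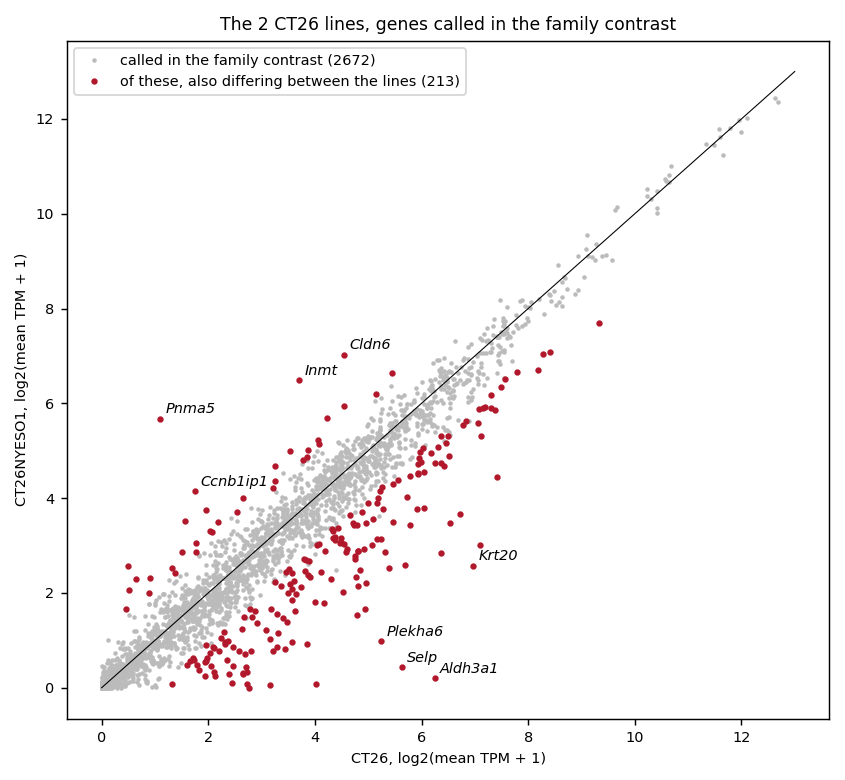
Mean level of each gene called in the family comparison in CT26 (x axis) and in CT26NYESO1 (y axis), both as log2(mean TPM + 1), with 213 genes that also differed between the lines in red and the line of equal level in black. Aldh3a1, Selp, Krt20 and Plekha6 lay far below the line, and Pnma5 and Cldn6 above it.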

How the data were processed

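RNA of 30 libraries from 10 tumour lines had been sequenced with a stranded poly(A) kit, per the labels' protocols. The authors deposited 1 table of TPM, and per the submitters' processing notes Trim Galore 0.6.5, STAR 2.7.3a, StringTie 2.1.2 and mm10 were used. The gene annotation and strand setting are not given in the sources used here. The table held 55291 symbols, with 0 repeated symbols and 0 pairs of identical libraries, and each library summed to 1000000 TPM, so depth is unknown.

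TPM were taken as log2(TPM + 1), and genes with at least 1 TPM in 3 of 15 libraries were fitted in 1 model with a mean for each of the 5 lines (limma 3.58.1, R 4.3.3). A contrast set the mean of both CT26 lines against the equal-weight mean of EMT6, CMS5a and Renca, and 5 further contrasts took each CT26 line against that mean and the CT26 family against each line. P-values were adjusted over all genes by Benjamini-Hochberg, and error values are standard errors of the fit unless named SD. Tables and figures used Python 3.11.15, numpy 2.4.6, pandas 2.3.3 and matplotlib 3.10.9. The steps were first tested on simulated data.

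The members and gene lists were chosen with earlier results of these data known. Named genes were the 12 largest rises and 8 largest falls called in all 6 contrasts, up to 4 called members of each list described with the largest change, the 4 genes in each direction that differed most between CT26NYESO1 and CT26, and 8 genes at 5 TPM or more in 1 group and under 0.5 TPM in the other. Predicted genes, clones, pseudogenes and receptor segments were left out. Other genes named were chosen after their values were seen.

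Alternatives were a pseudocount of 0.1, 2 other filters, median-ratio scaling, all 30 libraries in the fit, no threshold on fold change, a replicate block, and leaving out each comparison line or library. Same-numbered libraries of different lines deviated from their line means with a median r of -0.060 over 30 pairs, from -0.384 to 0.355, so replicate numbers were not taken as pairs. Gene positions are from GENCODE M21 (mm10), and promoter windows from RefSeq (GRCm38.p6), without those on chromosome 18. Results for some genes are not reported here.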

Additional observations from a re-analysis of the deposited data

Results flagged for a closer look

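Among the genes named by rule, 24 differed between the 2 CT26 lines in limma's test of CT26NYESO1 minus CT26. Of all 16345 genes tested, 430 differed (2.63%). For the 24, a single value for the family describes neither line well. The 4 genes in each direction with the largest difference were named for that difference, so their place among the 24 restates the choice. All differences are on the log2(TPM + 1) scale, with 3 libraries in each line. Higher in CT26NYESO1 were Pnma5 at 4.63, Inmt at 2.92, Cldn6 at 2.48 and Ccnb1ip1 at 2.42. The largest values lower in CT26NYESO1 were those of Aldh3a1 at -6.01, Selp at -5.19, Krt20 at -4.42, Plekha6 at -4.25 and the protease Mmp3 at -4.02.

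Lower in CT26NYESO1 were also 7 of the genes that were high in the family and close to off in the other 3 lines or among its largest rises: the neurofilament gene Nefl at -2.46, Glod5 at -1.95, Rarres1 at -1.80, Tmem200a at -1.69, Sox2 at -1.31, Sele at -1.25 and Fer1l6 at -1.19. Each of these 7 was above 5 TPM in all 6 family libraries, which for all but Rarres1 restates how they were picked. Of immune genes, the granzyme genes Gzmf and Gzmc differed by -2.87 and -1.55, while Gzmb, at -1.07, did not pass the test. The neutrophil chemokines Cxcl3 and Cxcl5 differed by -2.17 and -1.56, and the lysosomal gene Gpnmb by -2.02. The Wnt antagonist Dkk2 differed by -1.50, the immediate early gene Egr1 by -1.52 and the laminin chain gene Lama5 by -1.02.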

How the results depend on the processing

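Of 149 genes named by rule, 98 kept their call in all 25 alternatives, 51 lost it in at least 1, and 7 of these 51 changed direction when a comparison line was left out. The 7 were Cdh16 at 0.00367, Cldn4 at 0.00515, Des at 0.20, Gpnmb at 0.34 and Krt17 at 0.10 without Renca, Fabp4 at 0.97 without CMS5a and Sfn at 0.47 without EMT6. A pseudocount of 0.1 gave 1949 higher and 2327 lower genes in the family, 1430 and 1891 in both lines separately, and 483 lower against each line. With no threshold on fold change these counts were 4649, 5017, 2773, 3628, 1153 higher and 1052 lower against each line, and 1168 between the 2 CT26 lines. Against the remaining 2 lines, 812 were higher and 603 lower without EMT6, 740 and 614 without CMS5a, and 505 lower without Renca, where fewer lines have to be passed. With 1 library left out in turn, the family had 1129 to 1347 higher and 1428 to 1505 lower genes, both lines 826 to 953 and 1197 to 1260, each line 375 to 462 and 249 to 278, and 365 to 513 differed between the CT26 lines. Median-ratio scaling moved the median of all genes by -0.05 and the share of calls that were higher from 45.5% to 42.1%. With the replicate number as a block, the counts were 1217 and 1455, 890 and 1226, 406 and 259, and 411 between the CT26 lines, and the numbers do not pair the libraries. Low levels limit the fold changes of genes under about 1 TPM, where the pseudocount dominates.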

Other observations

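Genes called in the family comparison, in each CT26 line and against each of the 3 lines were also looked at by position. Of all 16345 genes tested, 2.20% were higher and 1.55% lower in all of these comparisons. Among 13141 protein-coding genes tested and placed on the genome, 40 runs of neighbours were called in the same direction, of which 6 held at least 3 genes. Whether this is more runs than such shares give without regard to position was not tested, so the runs are a description. On chromosome 5 the run Slc25a40, Rundc3b, Abcb1a and Abcb1b rose by 1.44, 2.26, 3.67 and 4.58 on the log2 scale; Abcb1a and Abcb1b encode the drug efflux pump P-glycoprotein and are close paralogs that can share reads. On chromosome 12 the serpin genes Serpina3f, Serpina3g and Serpina3i rose by 1.80, 2.31 and 1.31, also with close paralogs nearby.

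On chromosome 10 the run Ddt, Gstt3 and Gstt1 fell by 2.19, 3.78 and 5.89, and on chromosome 11 Dhx40, Ypel2 and Gdpd1 fell by 2.0, 2.09 and 2.68. Adamts1 and Adamts5, neighbours on chromosome 16, fell by 2.14 and 4.70, and Ido2 and Ido1 on chromosome 8 rose by 2.48 and 1.37.

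Hypoxia genes split by comparison line. Of 17 genes of hypoxia and glycolysis, 1 was higher and 4 were lower in the family, with a median of 0.04 that came to -1.18 against EMT6, 1.43 against CMS5a and 0.20 against Renca. Against EMT6 11 of the 17 were lower and against CMS5a 10 were higher. Car9, the carbonic anhydrase of hypoxic cells, rose by 1.35 against the mean but lost the call without Renca, at 0.43, without CMS5a, at 0.69, and without CT26 replicate 1, at 0.97. For the list, 6 were higher and 1 lower without EMT6, 0 and 5 without CMS5a, and 0 and 2 without Renca.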
